A study of Mus musculus with 40 samples.

Results

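Col2a1, Col11a1, Col24a1 and Col27a1 encode the chains of collagens II, XI, XXIV and XXVII, the fibril-forming collagens that are minor in heart. These 4 genes were chosen by name from the 11450 genes of the deposited table, which also holds 6 other fibrillar collagen genes (Col1a1, Col1a2, Col3a1, Col5a1, Col5a2 and Col5a3). Col11a2 was not analysed here. The animals were adult C57BL/6 mice, an inbred strain, and each had its left anterior descending coronary artery closed with a lasting tie, so that the muscle it feeds died and a scar formed. From each heart, RNA was sequenced from the injured region, which is the scar, and from remote, uninjured heart tissue. There were 4 mice on each of days 3, 7, 14, 21 and 42, which gave 20 mice and 40 libraries. No heart without a ligation is among the samples, so the comparison tissue also comes from an injured heart. The mice of days 3 to 21 carry A labels and those of day 42 carry B labels, so that day 42 and this difference in labels cannot be told apart.

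Fibrillar collagens are rods in which 3 chains wind around each other, with glycine opening every triplet of residues, and the rods pack side by side into fibrils. Type II collagen is the main fibril of cartilage, where type XI collagen sits within the fibril, starts it and limits its width. The Col11a1 chain can also join chains of type V collagen, its close relative and the subject of the study, in tissues other than cartilage. Types XXIV and XXVII form a separate branch of the family, known from developing bone and from cartilage.

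What the 4 genes share can be read in their exons. In the GENCODE M21 annotation of mm10, Col2a1 (ENSMUSG00000022483.17) lies at chr15:97975602-98004695 on the minus strand with 54 exons, and Col11a1 (ENSMUSG00000027966.20) at chr3:114030540-114220718 on the plus strand with 67. On the plus strand also lie Col24a1 (ENSMUSG00000028197.4) at chr3:145292472-145552011 with 60 exons and Col27a1 (ENSMUSG00000045672.15) at chr4:63214004-63334991 with 61. No other annotated gene overlapped the exons of any of the 4. Exons of 45, 54, 99, 108 or 162 bases made up 82.7% of the internal coding exons of Col2a1, 70.8% of Col11a1, 81% of Col24a1 and 79.7% of Col27a1, against 83.7% in Col1a1 and 3.55% over the 158826 internal coding exons of 21877 genes. One 54-base coding exon of each gene is printed below from the reference transcripts (GRCm38.p6), with that of Col1a1, the main scar collagen, to show the repeat. Capitals mark the glycine codon (GGN) that opens each triplet, other glycine codons are in lower case, and each exon begins with a triplet:
Col2a1, exon 6, chr15:97998545-97998598, minus strand: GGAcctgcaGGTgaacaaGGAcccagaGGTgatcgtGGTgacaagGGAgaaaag
Col11a1, exon 15, chr3:114108281-114108334, plus strand: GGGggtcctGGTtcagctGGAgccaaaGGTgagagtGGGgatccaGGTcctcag
Col24a1, exon 4, chr3:145320661-145320714, plus strand: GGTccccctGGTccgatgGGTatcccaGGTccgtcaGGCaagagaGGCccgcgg
Col27a1, exon 4, chr4:63231792-63231845, plus strand: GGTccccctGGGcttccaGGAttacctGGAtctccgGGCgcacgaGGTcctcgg
Col1a1, exon 8, chr11:94939904-94939957, plus strand: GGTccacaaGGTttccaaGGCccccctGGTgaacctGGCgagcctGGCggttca
The glycine repeat ran unbroken through 24 of 24 in-frame exons of this length in Col2a1, 31 of 31 in Col11a1, 32 of 33 in Col24a1 and 32 of 33 in Col27a1. The deposited values are 1 per gene, so splice forms could not be told apart.

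Levels are given as RPKM, the authors' read numbers divided by gene length and by the size of the library, which allows levels of different genes to be set side by side. The RPKM values of all 4 genes could be turned back into whole reads, and such reads summed to between 11559155 and 26114582 per library over the table, with a median of 19617040 in injured and 19358656 in uninjured libraries. What the authors took as the size of each library is not known, and it was not proportional to these totals. Differences were tested with limma on log2(RPKM + 1) with the mouse as a block, with Benjamini-Hochberg adjustment over the 11390 genes tested, and called at an adjusted p under 0.05. All 4 genes passed the filter of 1 RPKM in 4 libraries through the injured region only, where 13 to 20 of 20 libraries reached it for Col2a1, Col11a1 and Col27a1 and 9 of 20 for Col24a1, while 0 uninjured libraries did. Adding 1 RPKM compresses differences of genes this low, so ratios of group means on the RPKM scale are given beside them for all but Col2a1. In bulk tissue, a change in the number of cells that make a transcript cannot be told apart from a change in its amount per cell.

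All 4 genes were transcribed in the scar at many times their level in remote myocardium. On each of the 5 days, each gene was higher in the injured than in the uninjured library of the same heart in 4 of 4 mice, and no injured value overlapped an uninjured one. Complete separation of this kind was common in this tissue, and was seen for 41.3%, 38.1%, 38.8%, 39.9% and 35.7% of all genes tested on days 3, 7, 14, 21 and 42. Over the 5 days pooled, the lowest scar value of Col11a1, Col24a1 and Col27a1 was above the highest uninjured value, as for 16.3% of genes, while the day 3 scars of Col2a1 overlapped the highest uninjured library of day 21. What set the 4 genes apart from each other was the course. Col2a1, Col11a1 and Col24a1 rose in the scar from day 3 to day 7 and fell to day 14, while Col27a1 passed the test at neither step. Scar means of Col2a1, Col11a1 and Col24a1 at day 3 were 1.56%, 6.91% and 47.4% of those at day 7.

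**Figure D1:**
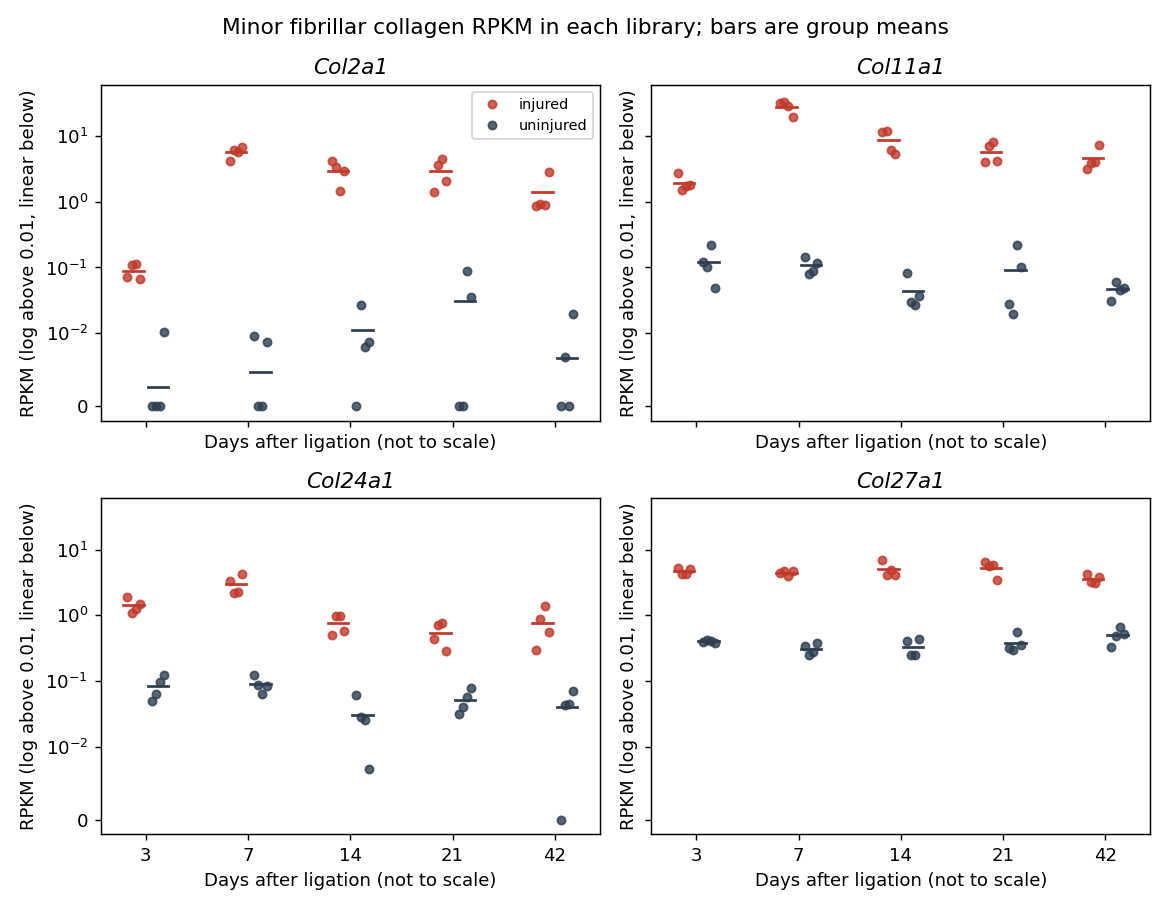
RPKM of each minor fibrillar collagen gene in each of the 40 libraries by day, on an axis that is logarithmic above 0.01 and linear below, with 4 mice per group and bars at the group means. In every panel all injured points (red) lie above all uninjured points (dark) of the same day, and Col2a1 is at 0 in 10 uninjured libraries.

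Col11a1, which encodes the first chain of type XI collagen, reached the highest level of the 4. At day 3 it stood at 2.74, 1.48, 1.73 and 1.78 RPKM in the scars of mice A4, A5, A7 and A8, and at 0.12, 0.102, 0.218 and 0.0489 in their uninjured regions. By day 7 the scars of mice A7, A9, A10 and A12 held 31.3, 33, 28.4 and 19.2 RPKM, against 0.145, 0.0795, 0.0897 and 0.116 in remote tissue. The lowest day 7 scar was thus above the highest scar of every other day. At day 14 the scar values were 11.6, 12.1, 6.18 and 5.4 RPKM in mice A4, A5, A6 and A11, and the uninjured values 0.0825, 0.0297, 0.0268 and 0.0372. Mice A3, A4, A10 and A11 of day 21 had 3.96, 7.03, 8.06 and 4.12 RPKM in the scar and 0.0278, 0.0198, 0.222 and 0.103 outside it. Mice B1, B3, B9 and B12 of day 42 had 3.1, 3.83, 4.08 and 7.31 RPKM in the scar and 0.0309, 0.0604, 0.045 and 0.0487 outside it. Scars of days 14, 21 and 42 overlapped in their values, and all 12 were above the 4 scars of day 3.

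The mean scar level of Col11a1 was 15.8-fold, 260-fold, 200-fold, 62.3-fold and 99-fold its mean in uninjured tissue on days 3, 7, 14, 21 and 42, where the uninjured means rest on 114, 101, 43, 100 and 52 reads over 4 libraries. The day 21 ratio was 116 without the uninjured library of mouse A10, which held 58 of the 100 reads. No other ratio checked for Col11a1, Col24a1 or Col27a1 moved by over 1.5 times when 1 library was left out. This check was chosen after seeing the data. It did not cover Col24a1 at day 14, where the uninjured libraries held 18 reads in all. On the log2 scale the differences on these days were 1.37 ± 0.18 (SE), 4.68 ± 0.18, 3.16 ± 0.18, 2.59 ± 0.18 and 2.36 ± 0.18 (limma adjusted p = 5.92e-07, 3.92e-15, 2.01e-12, 4.00e-11 and 2.19e-10). Over all genes, 44.1%, 43.6%, 42.4%, 43.1% and 40.5% were called higher in the scar on these days, so the call alone sets no gene apart. By size of the day 7 difference Col11a1 ranked 16 from the highest among 11390 genes. Within the injured region it rose by 3.29 ± 0.27 from day 3 to day 7 and fell by 1.61 ± 0.27 from day 7 to day 14 (limma adjusted p = 9.09e-09 and 1.15e-04, steps at which 27.7% of genes rose and 21.2% fell). The later steps, -0.51 ± 0.27 and -0.29 ± 0.27, did not pass (adjusted p = 0.419 and 0.455), and from day 14 to day 21 no gene of the table did (0% called higher and 0% lower), although 1496 had an unadjusted p under 0.05.

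Col2a1, the chain of type II collagen and also the source of the third chain of type XI, was nearly silent at day 3 and present in every scar from day 7. The 4 scars of day 3 held 0.0717, 0.107, 0.113 and 0.0659 RPKM, which is 9 to 18 reads per library. Those of day 7 held 4.23, 6.17, 5.75 and 6.81 RPKM, with 408 to 920 reads. No scar of day 3 came near one of day 7. Day 14 scars had 4.16, 3.36, 1.47 and 2.95 RPKM in mice A4, A5, A6 and A11, day 21 scars had 1.41, 3.69, 4.52 and 2.05 in mice A3, A4, A10 and A11, and day 42 scars had 0.871, 0.93, 0.898 and 2.87 in mice B1, B3, B9 and B12. Day 42 was split, with mouse B12 at about the level of the earlier days and the other 3 close together beneath every scar of days 7 to 21. In the uninjured region Col2a1 had 0 reads in 10 of 20 libraries and 11 at most, in a day 21 library at 0.0893 RPKM. A count of 0 allows up to 3 reads, which is 0.0248 to 0.0318 RPKM in those libraries, a limit that covers counting error only.

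For day 3, the difference in Col2a1 between regions was 0.12 ± 0.18 on the log2 scale (limma adjusted p = 0.536), although the 4 scars held 55 reads and the 4 uninjured libraries 1. Later it was 2.73 ± 0.18, 1.93 ± 0.18, 1.85 ± 0.18 and 1.17 ± 0.18 on days 7, 14, 21 and 42 (limma adjusted p = 1.15e-11, 3.35e-09, 5.86e-09 and 4.80e-06). With a pseudocount of 0.1 RPKM the day 3 difference was 0.88 and passed (limma adjusted p = 0.00323), and in a model of the day 3 libraries alone it stayed at 0.12 and also passed (adjusted p = 0.0401). When libraries were rescaled to their recovered reads, which moved the median difference of all genes to 0.347 to 0.512 over the 5 days, it was 0.14, beneath the day 3 median of 0.512, while every other difference of the 4 genes stayed above its day's median. No ratio of means is given for Col2a1, since the 4 uninjured libraries of a day held 1, 2, 5, 16 and 4 reads in all. In the scar Col2a1 rose by 2.61 ± 0.26 from day 3 to day 7 (limma adjusted p = 1.35e-07) and fell by 0.79 ± 0.26 to day 14 (adjusted p = 0.0202, which became 0.0507 without mouse A12 of day 7 and 0.0858 without mouse A6 of day 14). The step from day 14 to day 21 was -0.05 ± 0.26 (adjusted p = 0.95). That from day 21 to day 42 was -0.71 ± 0.26 (adjusted p = 0.0544), and it passed without mouse A3 or A11 of day 21 or mouse B12 of day 42 (adjusted p = 0.0194, 0.0495 and 0.00804).

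Col24a1, the chain of type XXIV collagen, had the lowest group mean of the 4 in the scar from day 7 on. Its day 3 scars held 1.86, 1.09, 1.26 and 1.49 RPKM and its day 7 scars 3.34, 2.17, 2.27 and 4.23 RPKM, so that all day 7 values were above all day 3 values. The 4 scars of day 14 held 0.506, 0.971, 0.979 and 0.576 RPKM, those of day 21 held 0.432, 0.699, 0.772 and 0.282, and those of day 42 held 0.293, 0.88, 1.37 and 0.554. Every day 14 and day 21 scar was below every day 3 scar, and at day 42 only mouse B9 reached the day 3 range. The uninjured libraries lay between 0 and 0.123 RPKM, from 0 to 16 reads.

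Scar means of Col24a1 were 17-fold, 33.8-fold, 24.6-fold, 10.6-fold and 19.5-fold the uninjured means on days 3, 7, 14, 21 and 42. The log2 differences were 1.15 ± 0.13, 1.85 ± 0.13, 0.76 ± 0.13, 0.54 ± 0.13 and 0.74 ± 0.13 (limma adjusted p = 2.57e-08, 1.21e-11, 1.06e-05, 4.45e-04 and 1.79e-05). Quantile normalization lowered the last 3 to 0.44, 0.28 and 0.49, which still passed (adjusted p = 0.00186, 0.0334 and 8.10e-04). Col24a1 rose by 0.70 ± 0.18 from day 3 to day 7 and fell by 1.17 ± 0.18 to day 14 (limma adjusted p = 0.00238 and 5.39e-05). The later steps of -0.19 ± 0.18 and 0.17 ± 0.18 did not pass (adjusted p = 0.676 and 0.503).

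Col27a1, the chain of type XXVII collagen, was the steadiest member. Day 3 scars held 5.21, 4.19, 4.22 and 5.15 RPKM, day 7 scars 4.35, 4.72, 3.98 and 4.78, and day 14 scars 6.83, 4.14, 4.93 and 4.09. Day 21 scars held 6.4, 5.6, 5.85 and 3.4 RPKM and day 42 scars 4.2, 3.17, 3.15 and 3.77. The values of successive days overlapped throughout, and the coefficient of variation among the 4 mice of a day was 8.38% to 25.6%, against 19.1% to 70.9% for Col2a1. In uninjured tissue Col27a1 was between 0.245 and 0.652 RPKM, from 60 to 172 reads, and was the most abundant of the 4 there.

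Scar means of Col27a1 were 11.8-fold, 14.4-fold, 15.1-fold, 13.9-fold and 7.21-fold the uninjured means. The log2 differences were 2.02 ± 0.11, 2.06 ± 0.11, 2.15 ± 0.11, 2.17 ± 0.11 and 1.61 ± 0.11 on days 3, 7, 14, 21 and 42 (limma adjusted p at most 3.97e-11). Its level in the scar did not pass the test over all days (limma F test, adjusted p = 0.0658, where 87.6% of genes passed), and did pass without mouse A4 or A11 of day 14 or mouse A11 of day 21 (adjusted p = 0.0413, 0.0485 and 0.00322). The steps to days 7, 14 and 21 were -0.06 ± 0.15, 0.12 ± 0.15 and 0.07 ± 0.15 (adjusted p = 0.746, 0.547 and 0.86). From day 21 to day 42 it fell by 0.45 ± 0.15 (limma adjusted p = 0.0319, a step at which 13.6% of genes fell), a call that was lost in a model of those days alone (adjusted p = 0.0652) and without mouse A3, A4 or A10 of day 21 or mouse B3 or B9 of day 42 (adjusted p of 0.0699 to 0.103).

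**Figure D2:**
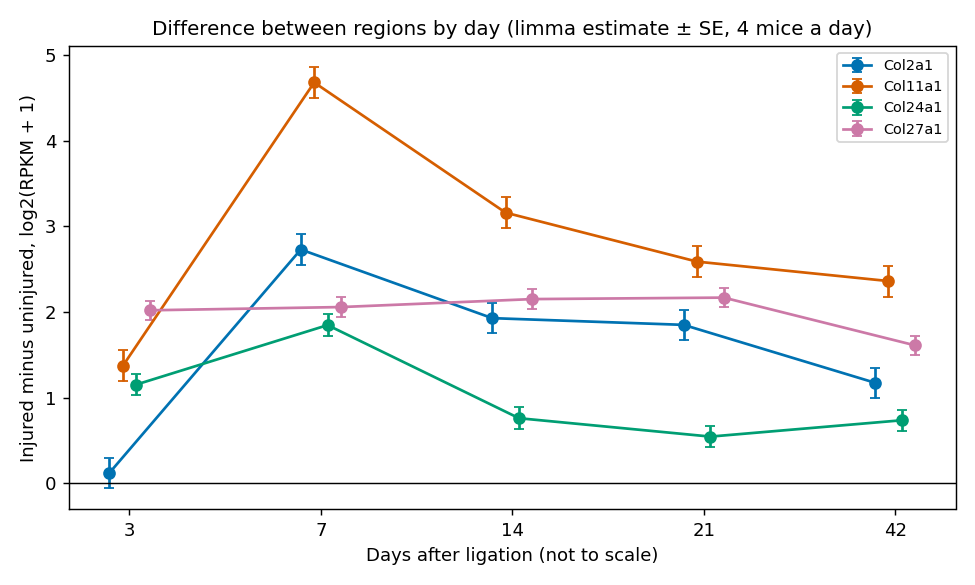
Injured minus uninjured difference of each gene by day on the log2(RPKM + 1) scale, as limma estimates with standard errors from 1 model of 40 libraries (4 mice a day). The standard error of a gene is the same on every day, so the bars do not show the spread among the mice of a day. Col11a1 climbs from 1.37 to 4.68 between days 3 and 7, Col2a1 from 0.12 to 2.73, and Col27a1 stays between 1.61 and 2.17.

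Whether the difference between regions changed over the days was tested for each gene in the same model. It did for Col11a1 (limma F test, adjusted p = 2.56e-08), Col2a1 (4.41e-07), Col24a1 (1.40e-05) and Col27a1 (0.0229), as for 74.3% of all genes. For Col27a1 the call was lost without mouse B3 or B9 of day 42 (adjusted p = 0.0843 and 0.118). In the uninjured region none of the 4 passed the test over the days (limma F test, adjusted p = 0.863 for Col2a1, 0.341 for Col11a1, 0.317 for Col24a1 and 0.173 for Col27a1), where 47.2% of genes passed. With quantile normalization the uninjured Col27a1 passed (adjusted p = 0.00791). At uninjured levels of 0 to 172 reads per library, small changes were not detectable at this depth. Adding 1 RPKM also flattened changes at these levels. The uninjured mean of Col24a1 was 0.089 RPKM at day 7 and 0.031 at day 14. That step was -0.08 ± 0.04 on the log2 scale (limma adjusted p = 0.221). Not passing is therefore no sign of a constant level.

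The order of the 4 transcripts by group mean differed between the regions and, in the scar, between the days. In uninjured tissue it was Col27a1, Col11a1, Col24a1, Col2a1 on every day. Col27a1 was above the next gene in 4 of 4 mice with no overlap. Below it the order was not firm: Col11a1 and Col24a1 overlapped, with Col11a1 higher in only 2 of 4 mice on days 21 and 42. Col24a1 and Col2a1 overlapped on days 14, 21 and 42. Scars of day 3 had the same order, with means of 4.69, 1.93, 1.42 and 0.0895 RPKM. At day 7 the order was Col11a1 at 28 ± 6.14 RPKM (SD, n = 4), Col2a1 at 5.74 ± 1.10, Col27a1 at 4.46 ± 0.37 and Col24a1 at 3 ± 0.98. Only Col11a1 stood clear of its neighbour, while Col2a1 and Col27a1, and Col27a1 and Col24a1, overlapped. On days 14, 21 and 42 the order was Col11a1, Col27a1, Col2a1, Col24a1, with means of 8.83, 5, 2.98 and 0.758 RPKM at day 14 and 4.58, 3.57, 1.39 and 0.774 at day 42. Col11a1 and Col27a1 overlapped on those 3 days, with Col11a1 higher in 4, 3 and 3 of 4 mice. Col27a1 and Col2a1 overlapped on days 14 and 21, and Col2a1 and Col24a1 at day 42, with Col2a1 higher in 3 of 4 mice.

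Beside the major fibrillar chains the 4 remained minor. The 6 other fibrillar genes were each called higher in the scar on all 5 days, as were 28.6% of all genes and, among the 4, Col11a1, Col24a1 and Col27a1, with log2 differences at day 7 from 0.68 ± 0.12 for Col5a3 to 5.45 ± 0.31 for Col1a1. Together the 4 made up 0.467% ± 0.027, 1.02% ± 0.15, 0.754% ± 0.154, 0.774% ± 0.151 and 1.12% ± 0.19 (SD, n = 4) of the summed RPKM of the 10 fibrillar genes in the scar on days 3, 7, 14, 21 and 42. In uninjured tissue their share was 0.254% ± 0.032, 0.206% ± 0.044, 0.243% ± 0.048, 0.293% ± 0.065 and 0.686% ± 0.288. Col11a1 was the largest part of the scar share at day 7, 0.69% against 0.11% for Col27a1, and Col27a1 was the largest part in uninjured tissue. These shares were not tested. At day 42 the higher shares went with lower major chains: from day 21 to day 42 Col1a1 fell by 1.89 ± 0.21 in the scar and fell by 1.62 ± 0.46 in uninjured tissue (limma adjusted p = 1.20e-05 and 0.0193).

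**Figure D3:**
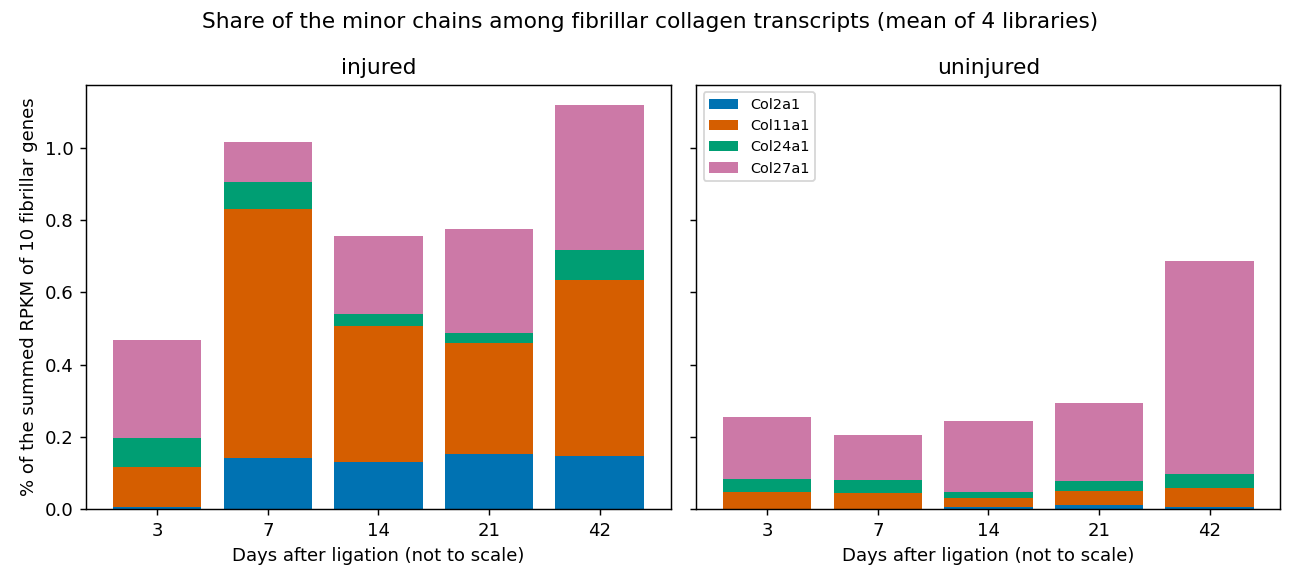
Mean share of each minor chain in the summed RPKM of 10 fibrillar collagen genes, stacked by gene, in injured and uninjured libraries by day (4 libraries per bar). Col11a1 forms most of the injured bar at day 7, when the 4 genes reach 1.02%, and Col27a1 most of every uninjured bar.

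In the scar, the minor chains did not all keep step with the major ones. The scar mean of Col2a1 at day 3 was 1.56% of its day 7 mean and that of Col11a1 6.91%, while Col24a1 was at 47.4% and Col27a1 already at 88.3% of its highest mean, which came at day 21. At day 42 Col11a1 was at 16.4%, Col2a1 at 24.3%, Col24a1 at 25.8% and Col27a1 at 67.2%. Among the other fibrillar genes only Col5a3, at its highest on day 3, shared with Col27a1 a highest mean on a day other than day 7. These percentages describe the group means and were not tested.

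**Figure D4:**
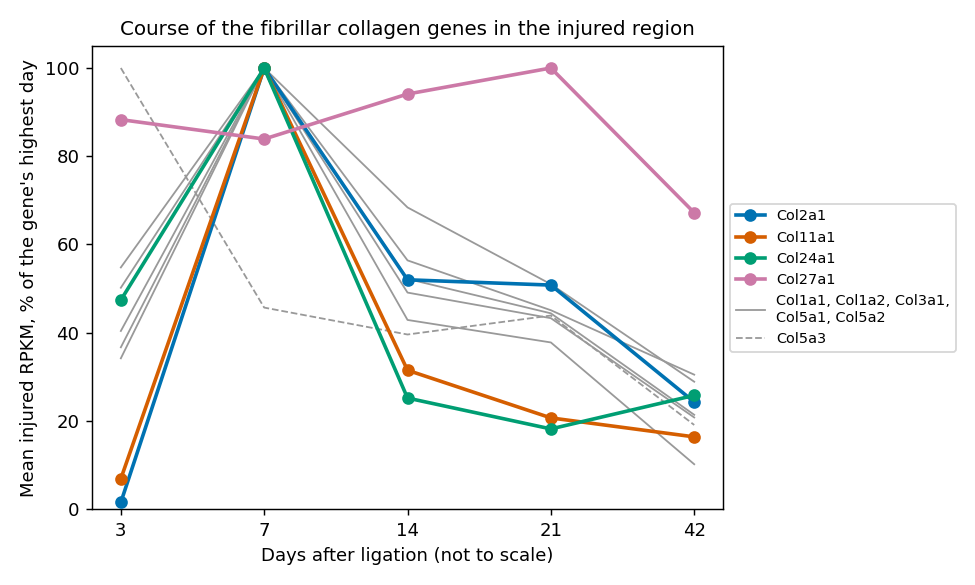
Mean injured RPKM of each fibrillar collagen gene by day as a percent of its own highest day (4 mice a day), with the 4 minor chains in colour and 6 other fibrillar genes in grey. Col2a1 and Col11a1 start at 1.56% and 6.91% and peak at day 7, and Col27a1 stays between 67.2% and 100%.

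Because chains of types V and XI can share a molecule, Col11a1 was set against Col5a1 within each library, as a log2 ratio with 0.1 RPKM added to each. Scaling between libraries cancels in this ratio, other than through the added 0.1. Col11a1 amounted to 1.64%, 13%, 8.33%, 6.2% and 10.2% of the Col5a1 level in the scar on days 3, 7, 14, 21 and 42, and to 0.359% to 0.734% in uninjured tissue. The log2 ratio was higher in the scar in 20 of 20 mice, by 2.18 ± 1.13 (SD, n = 20), with a two-sided sign-flip permutation p = 1e-05, which is the lowest value 100000 resamples allow. The mean shift by day was 0.38 ± 0.18, 3.36 ± 0.39, 2.79 ± 0.51, 2.16 ± 0.35 and 2.21 ± 0.94 (SD, n = 4), so it was smallest at day 3, when the ranges of the other days all lay higher. The shift depended on the amount added: it was 3.31 with 0.01 RPKM and -0.11 with 1 RPKM (permutation p = 0.622), an amount above every uninjured Col11a1 value, the highest of which was 0.222 RPKM.

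Partners of these collagens in cartilage were examined with gene lists. Sox9, the transcription factor that drives Col2a1 and Col11a1 in cartilage cells, was higher in the scar on all 5 days, by 1.51 ± 0.19, 2.67 ± 0.19, 2.91 ± 0.19, 3.16 ± 0.19 and 2.61 ± 0.19 as log2 differences (limma adjusted p at most 2.91e-07). In scars it averaged 4.04 ± 0.58 RPKM at day 3, when Col2a1 was nearly silent, and 10.4 ± 1.73, 11.7 ± 2.38, 13.5 ± 5.82 and 8.53 ± 1.09 after that. Its highest mean thus came at day 21 and that of Col2a1 at day 7. Sox9 in day 21 scars ran from 6.986 to 19.15 RPKM, which spans its day 7 range of 8.283 to 12.04. The day of its peak was not tested. Of the 7 cartilage regulators tested, 5, 5, 6, 6 and 5 were higher on days 3, 7, 14, 21 and 42 and 2, 1, 1, 0 and 1 lower. Over all genes, 40.5% to 44.1% were higher and 38.7% to 41% lower on these days. The median difference of the 7 regulators was 1.24 to 1.57, beside 0.0271 to 0.0554 for all genes tested. At day 7 the log2 differences of Runx1, Trps1 and Runx2, all regulators of skeletal cells, were 3.29, 2.03 and 1.38. The cells that held these 3 transcripts were not identified. The lower regulators, named after their values were seen, were Sox6, a partner of Sox9, on days 3, 7, 14 and 42 (-0.81 ± 0.09 at day 7, limma adjusted p = 5.11e-08) and Zfp219 at day 3 (-0.47 ± 0.09, adjusted p = 8.61e-05).

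Of 16 genes listed as markers of chondrocytes, the cells of cartilage, 4 were in the table and tested, and the other 12 were not analysed here. Acan, the large proteoglycan of cartilage, averaged 0.459 ± 0.125 RPKM in the scar at day 3 and 15.3 ± 3.77 at day 7, and had fallen to 2.34 ± 1.53 by day 42. Matn4, a matrix adaptor protein, went from 0.0277 ± 0.0149 to 4 ± 1 RPKM, and Col9a2, a chain of the type IX collagen that coats type II fibrils, from 0.188 ± 0.080 to 5.25 ± 1.97. Chad, a cartilage leucine-rich repeat protein, came later, with 0.301 ± 0.235 RPKM at day 7, 2.97 ± 1.35 at day 14 and 6.19 ± 2.17 at day 42. Of the 4, 0 were higher in the scar at day 3, 3 at day 7 and all 4 on days 14, 21 and 42, against 40.5% to 44.1% of all genes on these days. Chad at day 7 was at 0.33 ± 0.19 (limma adjusted p = 0.117). The summed level of the 4 was 0.45 to 0.833 RPKM in scars of day 3, 24.1 to 25.9 at day 7, 6.4 to 16.4 at day 42, and 0.286 to 1.14 in uninjured libraries. The cells that held these transcripts were not identified, and the part of cartilage-like cells in the Col2a1 and Col11a1 levels was not tested. Of the 9 osteoblast markers only Alpl was in the table, and it was lower in the scar on every day, with log2 differences of -0.73 to -1.26. On any 1 day, 38.7% to 41% of all genes were lower.

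**Figure D5:**
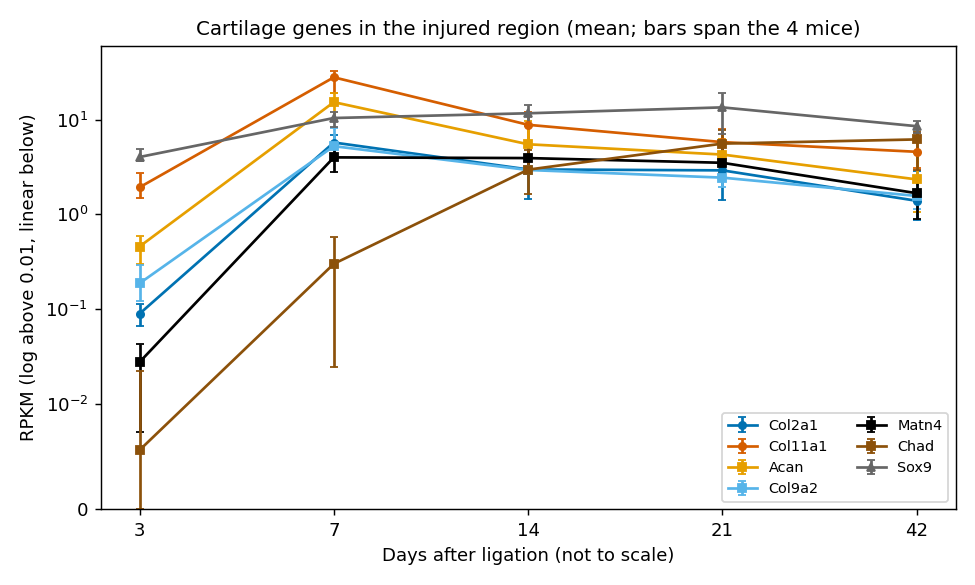
Mean RPKM of Col2a1, Col11a1, the 4 chondrocyte markers in the table and Sox9 in the injured region by day, on an axis that is logarithmic above 0.01, with bars spanning the lowest to the highest of 4 mice. Col2a1, Acan, Col9a2 and Matn4 rise steeply from day 3 to day 7, and Chad climbs from 0.301 RPKM at day 7 to 2.97 at day 14.

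Genes that build, trim and bind fibrils were counted against the 44.1%, 43.6%, 42.4%, 43.1% and 40.5% of all genes that were higher in the scar on days 3, 7, 14, 21 and 42. On the same days 39.6%, 38.7%, 40.5%, 41% and 38.7% of all genes were lower. Of 18 fibril-associated collagens and proteins tested, 7 were higher and 6 lower at day 3. On each later day 17 were higher, with 1 lower on days 7, 14 and 21 and 0 at day 42. At day 7 the differences were largest for Comp (5.83 ± 0.37 on the log2 scale), Thbs1 (5.60), Fmod (4.74) and Col12a1 (4.71), in an order that was not kept on later days. All 18 rose in the scar between days 3 and 7, the step at which Col2a1 and Col11a1 rose, with a median of 2.55. Of all genes tested, 27.7% rose at this step. Of 20 procollagen folding and secretion genes, 15, 17, 14, 12 and 16 were higher and 3, 1, 3, 2 and 2 lower on the 5 days, with the prolyl hydroxylase subunit P4ha3 at 3.64 on day 7. Of 11 genes for propeptide removal and cross-linking, 10 or 11 were higher on each day and 1 was lower at day 3. Lox, the enzyme that cross-links collagen, was at 5.40 on day 7. Of 9 collagen receptors, 7 or 8 were higher on each day and 1 was lower at day 7. Itga11, an integrin that binds fibrillar collagen, was at 3.72 on day 7.

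Lists of cell type markers were compared in the same way. All 10 cardiomyocyte markers were lower in the scar on every day, with a summed level of 1412 to 7381 RPKM against 22970 to 37600, where 39.6%, 38.7%, 40.5%, 41% and 38.7% of all genes were lower on days 3, 7, 14, 21 and 42. Of 11 activated fibroblast markers, 10 or 11 were higher on each day, and their summed level was 586 to 3617 against 102 to 314 RPKM. Monocyte and macrophage markers were higher in 9 or 10 of 10. Of 10 resting fibroblast markers 5 or 6 were higher and 2 to 5 lower, of 8 endothelial markers 0 to 2 were higher and 2 to 7 lower, and of 9 pericyte and smooth muscle markers 4 were higher and 4 lower. The counts higher for resting fibroblasts, pericytes and smooth muscle are thus near the shares of all genes given above. Of 7 epicardial and mesothelial markers 3 to 6 were higher, and of 5 Schwann cell and neuronal markers 4 or 5. The part of these cell types in the levels of the 4 collagens was not tested.

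The genes whose levels were most like each member's over the 20 injured libraries were ranked by Pearson's r of log2(RPKM + 1). These libraries come from 5 days, with 4 sharing each day, and differ in depth (11559155 to 23827022 recovered reads), so the same r was also taken after removing the mean of each day, a step chosen after seeing the data. Among those most similar to Col11a1 were Prss35 (r = 0.957), Serf1 (0.956), Acan (0.954) and C1qtnf3 (0.948), with r of 0.38 to 0.721 within days. For Col2a1 the 5 most similar were 4931406P16Rik (0.952), Ldlrad3 (0.944), Thbs2 (0.942), Fat1 (0.94) and Col9a2 (0.935), with r of 0.438 to 0.758 within days. The Col24a1 list was Myo5a and Clec7a (both 0.857), Rcn1 (0.849), Lair1 (0.848) and Fmn1 (0.847), with r of -0.075 to 0.454 within days. That of Col27a1 was Apbb2 (0.843), Ubald1 (0.805), Nlgn2 (0.795), Gabbr1 (0.779) and Pogz (0.774), and here the r within days stayed at 0.713 to 0.811.

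Among the members themselves, Col2a1 and Col11a1 varied together across the 20 scars (r = 0.9, and 0.67 within days). The mouse highest in both was the same on days 21 (A10) and 42 (B12) and not on the other 3 days, and at day 7 mouse A12 was highest in Col2a1 and lowest in Col11a1. Col27a1 had r of 0.17, 0.1 and -0.05 with Col2a1, Col11a1 and Col24a1, and Col24a1 had r of 0.24 with Col2a1 and 0.52 with Col11a1, which was 0.09 within days. With Sox9, r over all scars was 0.69 for Col2a1, 0.56 for Col11a1, -0.1 for Col24a1 and 0.35 for Col27a1. Within days it was -0.01, 0.23, 0.4 and 0.59 in the same order. These are descriptions over 20 libraries with no test.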

How the data were processed

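RNA-seq of total RNA was made with TruSeq libraries, per the labels' protocols. The submitters' processing notes name STAR, edgeR and mm10 without roles. The counting method and annotation were not given in the sources used here. The authors deposited 1 table of RPKM, which are not counts, for 11450 genes. The rule that chose these genes was likewise not stated there. Whole reads were worked back from the RPKM steps for 11448 genes (99.98%, to within 0.01 reads). Reads outside these genes are not in the totals.

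The 11390 genes that reached 1 RPKM in 4 libraries were tested on log2(RPKM + 1) with limma 3.58.1 (R 4.3.3, statmod 1.5.0), with mean-variance trend and robust moderation. Regions were compared in 1 model of 40 libraries with the mouse as a block, since both regions came from 1 heart per the series' design text. Deviations of the paired libraries correlated at 0.148 to 0.54. Days were compared within each region over 20 libraries. Adjustment followed Benjamini and Hochberg and covered all tested genes. The models were checked on simulated data with known changes, drawn with the same normal spread in every group. That setting does not match genes with few reads in the uninjured region. The Col11a1 to Col5a1 ratio was the only ratio tested.

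Exon structure came from GENCODE M21 transcripts. The members and gene lists were chosen with earlier results of these data known. Named genes were the members, the other fibrillar genes, up to 4 genes of a list by mean difference between regions, and the 5 genes most correlated with each member, of which 1 is not reported here. Alternatives changed the pseudocount, filter, scaling, moderation, block, a covariate for Xist detection, and left out each mouse. Xist detection was uneven over the days: scars had a median of 0.0595 RPKM at day 3 (highest 70.8) and 83.55 at day 14 (lowest 0.118). Lists of cell types were textbook markers.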

Additional observations from a re-analysis of the deposited data

Results flagged for a closer look

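In the injured region of day 42, Col2a1 in mouse B12 was at 2.875 RPKM (437 reads), while the other 3 mice were between 0.8707 and 0.9301, a gap beyond Dixon's critical value for 4 samples. In the uninjured region of day 3, Col2a1 was at 0.01039 RPKM in mouse A8 and at 0 in the other 3, a gap that rests on 1 read. These were 2 of 40 groups examined, and chance alone marks about 1 group in 20.

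The difference between regions itself changed over the days for each of the 4 genes, as it did for 74.3% of all genes tested. The limma F test adjusted p was 4.41e-07 for Col2a1, 2.56e-08 for Col11a1, 1.40e-05 for Col24a1 and 0.0229 for Col27a1. The last of these was lost without mouse B3 or B9 of day 42.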

How the results depend on the processing

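Over 65 results on the 4 genes, 1059 alternative values were computed. Of these, 1038 kept their direction and side of the threshold, 10 no longer passed, 10 newly passed and 1 reversed, and 57 results kept their side in every alternative. The 65 include results within the uninjured region, where few reads and the added RPKM could hide changes, so these could hardly change side. With a pseudocount of 0.1 the day 3 difference of Col2a1 was 0.878 (adjusted p = 0.00323) and its step from day 21 to day 42 in the scar was -1.065 (adjusted p = 0.0435), both now past the threshold. In models of only the libraries compared, the day 3 difference of Col2a1 of 0.12 passed (adjusted p = 0.0401) and the Col27a1 step from day 21 to day 42 of -0.445 did not (adjusted p = 0.0652). With quantile normalization the uninjured Col27a1 passed over the days (adjusted p = 0.00791). The Col11a1 to Col5a1 shift reversed to -0.106 with 1 RPKM added.

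Leaving out each mouse in turn, the Col27a1 adjusted p for the change of the difference ran from 0.00362 to 0.118 and that over the days in the scar from 0.00322 to 0.188. The Col2a1 steps ran from -0.934 to -0.58 for days 7 to 14 and from -0.968 to -0.52 for days 21 to 42, and the Col27a1 step for days 21 to 42 from -0.61 to -0.36. With no replicate block (the mouse left out of the model) the pairing changed no call: the Col2a1 difference at day 3 stayed at 0.12 (adjusted p = 0.572) and the Col11a1 difference at day 7 at 4.682.

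Rescaled to the totals of recovered reads, the median over all genes of the difference between regions moved from between 0.0271 and 0.0554 to between 0.347 and 0.512, and genes higher and lower in the scar changed from 5021 and 4513 to 7372 and 2689 at day 3, from 4961 and 4404 to 6589 and 3086 at day 7, from 4831 and 4608 to 7093 and 2770 at day 14, from 4906 and 4665 to 7144 and 2737 at day 21, and from 4611 and 4409 to 7348 and 2425 at day 42. The differences of the 4 genes then were 0.65 to 4.92 and above the median of their day, other than that of Col2a1 at day 3 (0.144 against 0.512). Rescaling also moved the count of genes that rose in the scar from day 14 to day 21 from 0 to 5, and in uninjured tissue the counts higher and lower from day 3 to day 7 from 1186 and 1656 to 2736 and 498 and from day 7 to day 14 from 853 and 633 to 223 and 1087. For the last step higher, Xist detection as a covariate gave 1493 and quantile normalization 524. The cause was not tested. Depth limited the uninjured values of Col2a1, at 0 to 11 reads per library.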
